A study of Mus musculus with 2 samples.

Results

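The miRNA genes inside the mouse gene Sfmbt2 were examined in gastrocnemius, a calf muscle of the hindlimb. Members were all genes of type miRNA that the GENCODE M21 annotation (assembly mm10) places on chromosome 2, plus strand, wholly inside Sfmbt2. The rule used position only and no measured value. It found 119 genes among the 2202 miRNA genes in the deposited tables. The 2 libraries came from male B6CASTF1/J mice (F1 hybrids between the strains C57BL/6J and CAST/EiJ) of 10 days of age, and are labelled as biological replicates 1 and 2. The labels name no treatment and no modified allele, and both samples belong to 1 group, so no conditions could be compared. The sample descriptions number the males separately, but both samples carry the same donor entry, so it is not certain from the labels that they are separate animals. Every SD therefore measures only the spread between these samples, which may be technical. Here CPM means counts per 1000000 counts assigned to miRNA genes, and an SD is over the 2 libraries.

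A miRNA is cut from a hairpin in a longer transcript. Its mature arm then guides the silencing of messenger RNAs, mainly through the seed, bases 2 to 8 of the arm. Sfmbt2 encodes a Polycomb group protein and is imprinted, with expression from the paternal copy in the early embryo and in extraembryonic tissues. The miRNA cluster in its intron occurs in rodents, is known to be active in embryonic stem cells and placenta, and is required for normal growth of the placenta in mice. Copies of one of its families, miR-669, have been described as regulators of the myogenic factor MyoD.

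Sfmbt2 spans chromosome 2, 10370510 to 10595253 (mm10). All 119 members lay in 1 intron, from 10461473 to 10523944, which follows exon 10 in one annotated transcript and exon 11 in another. No member overlapped an exon. The members occupied 52993 bases of this intron, from 10465287 to 10518279. By symbol they comprised 5 Mir297, 23 Mir466, 14 Mir467 and 29 Mir669 genes, and 48 further genes with Gm symbols, the names of gene models without a miRNA family name. Of these 48, the closest named hairpin was a Mir669 gene for 44, a Mir466 gene for 2 (Gm25285 and Gm25943, both identical to it), a Mir467 gene for 1 (Gm25022, identical) and a Mir297 gene for 1 (Gm23578, 79.8% identity). For the 44, identity with that Mir669 hairpin ranged from 69.6% to 100%, with a median of 95.3%. RefSeq lists 72 members with the same span, all under the same symbol.

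Genes of the same 4 families also lie elsewhere in the genome. Mature sequences were available for 8 of these outside copies, and 4 are shown as examples of their repeat letters. They were taken from RefSeq (build GRCm38.p6), run 5′ to 3′, and have the seed in capitals.
mmu-miR-466q: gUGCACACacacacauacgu
mmu-miR-466k: uGUGUGUGuacauguacauguga
mmu-miR-467h: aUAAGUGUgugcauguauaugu
mmu-miR-669n: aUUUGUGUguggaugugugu
The first copy lies on chromosome 3 at 28419988 to 28420007, and the second on chromosome 3 at 85467396 to 85467418. The third lies on chromosome 9 at 115381898 to 115381919 and the last on chromosome 3 at 115979905 to 115979924, all on the plus strand. The runs of alternating U and G or C and A in these arms were also frequent in the hairpins inside Sfmbt2. The dinucleotides TG, GT, CA and AC made up a median of 50% of the dinucleotides of a member hairpin, against 27.0% over all 2202 miRNA genes. The median GC content was 37.3% in members and 50.8% over all miRNA genes.

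The reads assigned to the cluster summed to a low level, and most of them were assigned to 2 genes, Mir467d and Mir467e. Reads that matched several places are in no gene. Of the 119 member hairpins, 54 held no 20 bases in a row that were absent from all other annotated miRNA hairpins. The counts therefore set a lower limit on the cluster and do not show which copies led it. The members together had 3634 counts in replicate 1 and 3804 in replicate 2. This was 0.0909% of the assigned counts in replicate 1 (exact 95% binomial interval 0.0879 to 0.0939) and 0.0751% in replicate 2 (0.0728 to 0.0776). The mean was 830 ± 111 CPM (SD, n = 2). As a share of all reads, unassigned ones included, the cluster took 0.0335% ± 0.0057. Replicate 1 was the higher library on both scales. The tables held 3999172 assigned counts in replicate 1 and 5062714 in replicate 2. Intervals and limits here take each read as independent and cover counting error only. The reads carry no molecular identifiers, so repeated reads of 1 molecule could not be told apart, and the intervals may be too narrow.

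At least 10 counts in both libraries, the criterion used here for detection, were reached by 6 of the 119 members, or 5.04%. Over all 2202 miRNA genes the detected share was 14.2%. Another 4 members had fewer counts, and 109 had none in either library. For reads that can be assigned to 1 gene, a count of 0 allows up to 3 counts, or 0.750 CPM in replicate 1 and 0.593 CPM in replicate 2. It sets no limit for 54 of the 109, whose hairpins held no 20 bases in a row absent from all other annotated miRNA hairpins. Any count was seen for 31.6% of all miRNA genes. The detected members had mean levels from 12.3 to 380 CPM, with a median of 55.1 CPM, beside a median of 135 CPM over the 313 detected miRNA genes of the series.

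**Figure D1:**
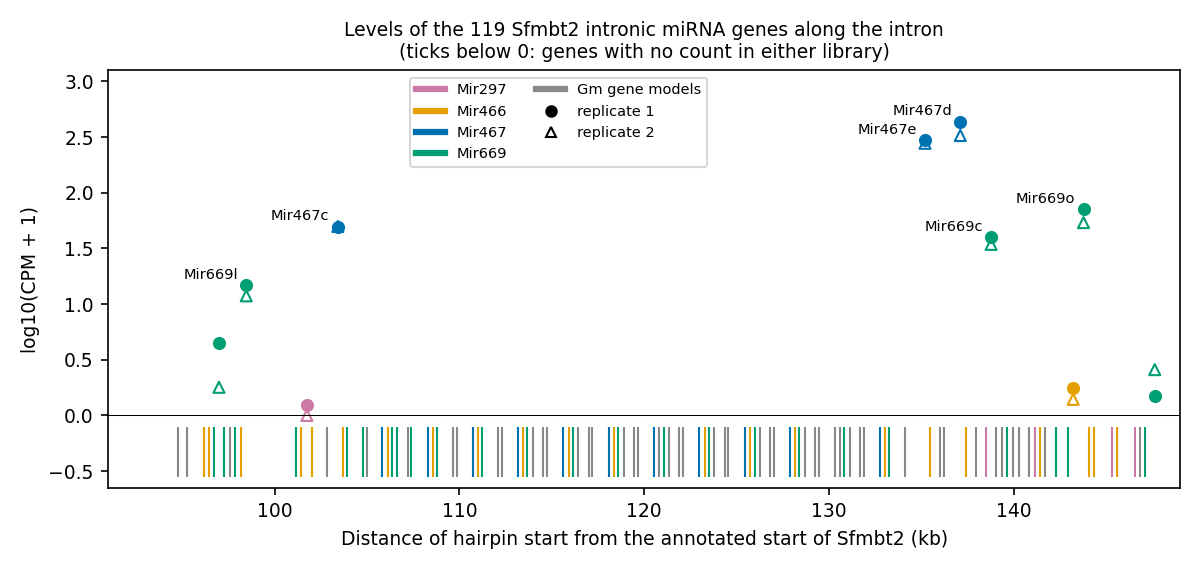
Level of each member on a log10(CPM + 1) scale against the distance of its hairpin from the annotated start of Sfmbt2 in kb, with filled circles for replicate 1, open triangles for replicate 2 and ticks below 0 for the 109 members without a count. The 6 labelled detected genes lie on both sides of a stretch of 72 members without a count.

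The Mir467 family held most of the counts. It took 86.3% ± 0.58 of the cluster counts, 85.9% in replicate 1 and 86.7% in replicate 2. Only 3 of its 14 genes had any count in these libraries, and all 3 were detected. Mir467d (10507630 to 10507714) had 1739 counts in replicate 1 and 1648 in replicate 2, or 435 and 326 CPM. Replicate 1 was the higher library by this measure, and with a mean of 380 ± 77 CPM the gene ranked 108 of 2202.

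Mir467e (10505721 to 10505807), which lies 1909 bases upstream of Mir467d from start to start, had 1191 counts in replicate 1 and 1403 in replicate 2. Its level was 298 and 277 CPM, with a mean of 287 ± 15 CPM and rank 120. Together these neighbours supplied 80.4% ± 0.30 of the cluster counts, a share that was nearly equal in both libraries. Mir467c (10473931 to 10474027) lies near the other end of the cluster. It had 191 and 247 counts, or 47.8 and 48.8 CPM, and was the only detected member with a higher CPM in replicate 2. The hairpins of Mir467d and Mir467e were 92.0% identical, and that of Mir467c was 83.5% identical to each.

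The other Mir467 genes, the 10 copies Mir467a-1 to Mir467a-10 and Mir467b, had no count in either library. None of the 10 Mir467a hairpins held a window of 20 bases that was absent from all other annotated miRNA hairpins. The hairpins of Mir467a-2, Mir467a-4, Mir467a-5, Mir467a-7, Mir467a-8 and Mir467a-9 were identical, as were those of Mir467a-3, Mir467a-6 and Mir467a-10. A zero for these genes therefore sets no limit on the miR-467a mature RNA, since reads that match several places were assigned to no gene.

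The Mir669 family took 13.6% ± 0.54 of the cluster counts, 14.0% in replicate 1 and 13.2% in replicate 2. Of its 29 genes, 5 had counts and 3 were detected. Mir669o (10514300 to 10514395) had 283 and 268 counts, or 70.8 and 52.9 CPM. Mir669c (10509296 to 10509404) had 155 and 169 counts, or 38.8 and 33.4 CPM. Mir669l (10468971 to 10469068) had 55 counts in each library, or 13.8 and 10.9 CPM. All 3 had a higher CPM in replicate 1, which was the smaller library.

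Below the detection criterion, Mir669e (10467495 to 10467613) had 14 counts in replicate 1 and 4 in replicate 2. Mir669h (10518155 to 10518279) was reversed in order, with 2 counts in replicate 1 and 8 in replicate 2. Their levels were 2.15 ± 1.92 and 1.04 ± 0.76 CPM, with a wide spread beside the mean in both cases. The 12 Mir669a copies, the family members linked to MyoD in the literature, had no count. Of these, 11 held no window of their own, and Mir669a-4 to Mir669a-12 formed a group of 9 identical hairpins, the largest such group in the cluster.

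The Mir466 and Mir297 families were almost without counts. Of the 23 Mir466 genes, Mir466n (10513741 to 10513834) had 3 counts in replicate 1 and 2 in replicate 2, and the other 22 had none. Of the 5 Mir297 genes, Mir297a-2 (10472254 to 10472343) had 1 count in replicate 1 and 0 in replicate 2, and the other 4 had none. These 2 genes lay at or below the 3 counts that a 0 allows. None of the 48 Gm genes had a count in these libraries. As for Mir467a, a zero sets no limit for the 9 Mir466 and 22 Gm genes that held no window of 20 bases of their own.

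**Figure D2:**
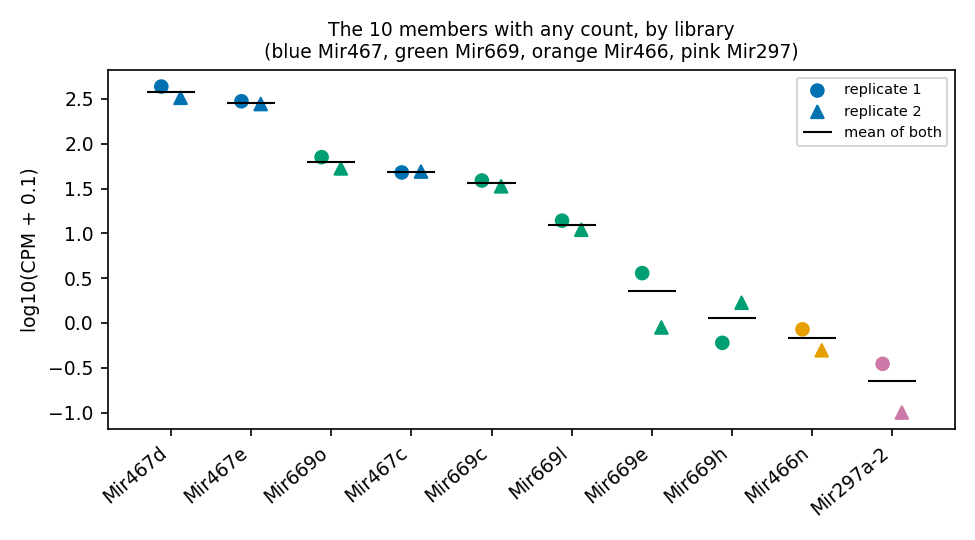
Levels of the 10 members with any count on a log10(CPM + 0.1) scale, with circles for replicate 1, triangles for replicate 2 and lines for the mean. Mir467d and Mir467e stand at 277 CPM or more in both libraries, and the 4 members on the right at 3.50 CPM or less.

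The order of the 6 detected genes was the same in both libraries, namely Mir467d, Mir467e, Mir669o, Mir467c, Mir669c and Mir669l. Mir467d exceeded Mir467e by 1.46-fold in replicate 1 (exact interval of the count ratio 1.36 to 1.57) and by 1.17-fold in replicate 2 (1.09 to 1.26). These intervals did not overlap, so the ratio of these neighbours differed between the libraries beyond counting error whatever the scaling. Mir467e exceeded Mir669o by 4.21-fold in replicate 1 and 5.24-fold in replicate 2, the widest step in the order. Mir669o and Mir467c had a ratio of 1.48 in replicate 1 (1.23 to 1.79) and 1.09 in replicate 2 (0.909 to 1.30). Mir467c and Mir669c had a ratio of 1.23 in replicate 1 (0.992 to 1.53) and 1.46 in replicate 2 (1.20 to 1.79). For each of these last 2 pairs, 1 library gave an interval that included equal counts, so their order was not resolved in that library. Mir669c exceeded Mir669l by 2.82-fold and 3.07-fold. The ratios compare assigned reads, and each gene loses an unknown part of its reads to other copies.

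Between the libraries, 2 of the 6 members tested differed beyond counting error, both lower in replicate 2. The test was a two-sided exact binomial test given TMM-scaled totals, and p-values were adjusted by Benjamini-Hochberg over the 332 miRNA genes that had a mean of at least 10 counts. It compares these libraries and not conditions. Mir467d had a log2 ratio of replicate 2 to replicate 1 of -0.35 (interval -0.44 to -0.25, exact binomial adjusted p = 2.33e-11). Mir669o had a log2 ratio of -0.35 (interval -0.59 to -0.10, exact binomial adjusted p = 0.0150). The other log2 ratios were -0.03 for Mir467e (interval -0.15 to 0.08), 0.10 for Mir467c (-0.18 to 0.38), -0.14 for Mir669c (-0.47 to 0.18) and -0.27 for Mir669l (-0.83 to 0.30). For these 4 genes, differences within the intervals are compatible with the counts.

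Of all 332 genes tested, 39.5% were called in either direction, 12.3% as lower and 27.1% as higher in replicate 2 (0 of the 6 members were higher), so calls of this kind were common in the series. The median log2 ratio was -0.21 over the 6 members and 0.02 over all genes tested. When edgeR's negative binomial exact test was used, in which spread beyond counting error is modelled, 1.81% of the 332 genes and 0 of the 6 members were called. The spread in that test was estimated from the same 2 libraries that it compares. A low number of calls was therefore largely fixed in advance and cannot show whether the libraries differ. No member had an unadjusted p under 0.05 in that test, and the 2 members called by the exact binomial test had an adjusted p of 1.

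**Figure D3:**
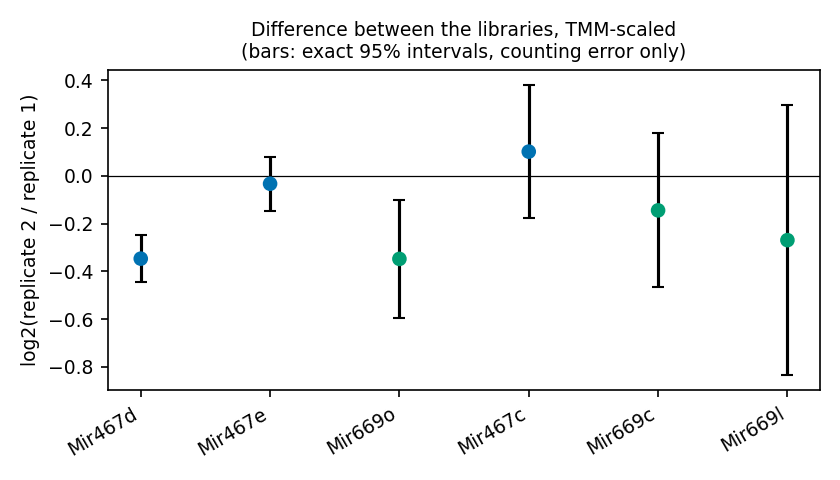
Log2 ratio of replicate 2 to replicate 1 for the 6 members tested, TMM-scaled, with exact 95% intervals that cover counting error only. The intervals of Mir467d and Mir669o lie below 0 and the other 4 include 0.

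The middle of the cluster is a tandem array of near-identical hairpins. Over the 7021 pairs of members, hairpin identity (from the edit distance over the longer hairpin) ranged from 44.4% to 100%, with a median of 60.3%. Of the 119 members, 47 had a hairpin identical to that of another member, in 16 groups. Within families the median identity was 86.8% for Mir467, 86.5% for Mir297, 74.5% for Mir466 and 71.1% for Mir669. From one Mir467a copy to the next the median distance was 2462 bases and 6 members, and it was 2470 bases for Mir466b and 2457 bases for Mir669a. Between copies of the same symbol, distances ranged from 2413 to 4880 bases for Mir467a, from 2409 to 9795 for Mir466b and from 2420 to 6373 for Mir669a. Part of this range comes from naming. Stretches of 4880 bases between Mir467a copies hold Mir467b or Gm25022, and the 9795 bases for Mir466b hold Mir466e, Mir466c-1 and Mir466c-2. Mir669p-1 and Mir669p-2 likewise lie between Mir669a copies, though not within the longest distance. The next copy came exactly 6 members later in 7 of 9 cases for Mir467a, 3 of 7 for Mir466b and 5 of 11 for Mir669a. Stretches of similar order appear as parallel diagonals in the plot of pairwise identity.

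**Figure D4:**
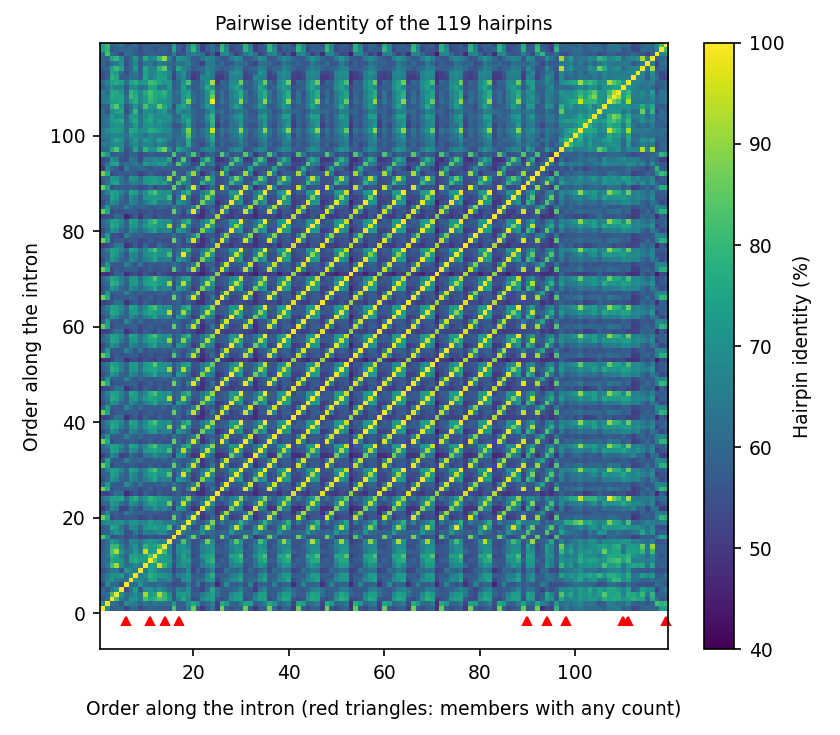
Identity in percent between all pairs of the 119 hairpins, ordered along the intron on both axes, with red triangles under the 10 members with any count. Parallel diagonals of high identity fill the middle of the cluster, where no member had a count.

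The counted genes lay at the ends of the cluster. Between Mir467c and Mir467e, 72 consecutive members over 30555 bases, from Mir466b-1 to Gm26398, had no count in either library. Of these 72, 52 held no window of 20 bases of their own, so the zeros of those 52 set no limit on their level. Upstream of the stretch lie 17 members, 4 of them with counts, and downstream lie 30, of which 6 had counts. The downstream genes supplied 92.4% ± 0.61 of the cluster counts.

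Each of the 10 counted members held some sequence of its own, as did 55 of the 109 members without a count. A window of 20 bases was called a gene's own where its letters, on either strand, occurred at no other place among the 2202 annotated miRNA hairpins. Of the 54 members without such a window, 0 had a count. Of the 40 with own windows below 50% of the hairpin, 2 had a count and 1 (Mir467d, with 25 of 66 windows) was detected. Of the 25 with 50% or more, 8 had a count and 5 were detected, or 20.0%. Among all other miRNA genes the same classes held 247, 316 and 1520 genes, of which 5, 4 and 677 had a count. Detected were 1, 0 and 306 of them, the last being 20.1% of the 1520. Having no own window thus did not always go with a count of 0. No test was made, since the members share sequence and are not independent. The 10 counted members had 23 to 95 own windows. Their longest stretch shared with another hairpin ran from 24 to 60 bases, with a median of 47.5 bases. Over the 109 members without a count the median was 83 bases, but these include the 54 without own windows, so that contrast largely follows from how reads were counted. In the 55 uncounted members with own windows the median was 50 bases, and in the 17 with at least 50% own windows it was 29 bases.

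**Figure D5:**
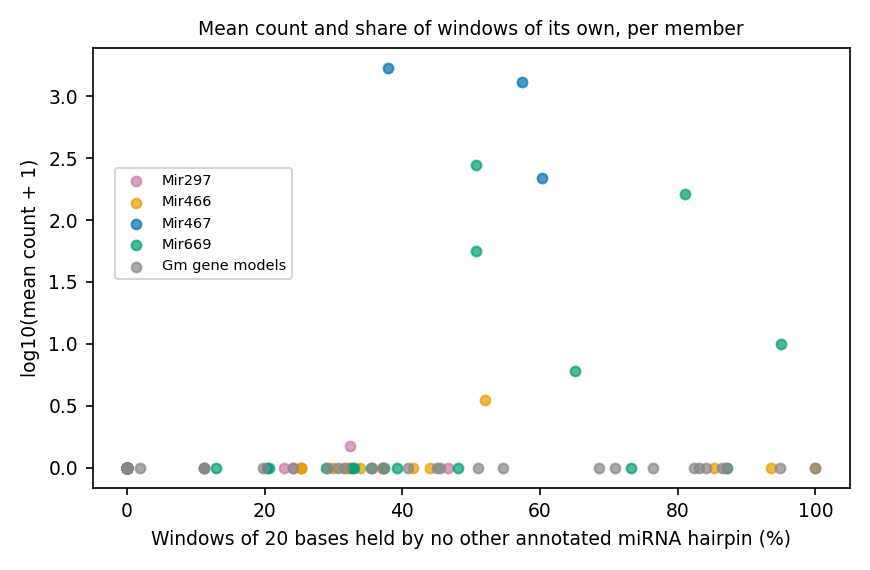
Mean count of each member on a log10(count + 1) scale against the percentage of its windows of 20 bases that no other annotated miRNA hairpin holds, coloured by family. The 54 members at 0% had no count, and members without a count also occur up to 100%.

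Members made up mostly of their own sequence were also found without counts. No count was found for 17 members that held at least 50% own windows. They included Mir466g and Gm22239, for which all 61 and all 84 windows were their own and which were the only members that shared no stretch of 18 bases or more with another hairpin. Mir466h (58 of 62 windows), Mir669b (68 of 78), Mir466l (87 of 102) and Mir669i (79 of 108) belonged to the same set, and the remaining 11 were Gm genes. For these genes a read from an own window could have been assigned if it matched nowhere else in the genome. For such reads the level was at most that of 3 counts. Whether the mature arms lie in own windows was not tested. The search covered annotated miRNA hairpins only, so matches elsewhere in the genome, and reads that differ from mm10 because they come from the CAST/EiJ chromosome, were not tested. The opposite strand held no counts for members. The counts with and without regard to strand were equal for all 119.

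The copies of the 4 families outside Sfmbt2 were not detected. The tables hold 10 such genes on chromosomes 3, 5, 7, 9, 10, 11 and 13. Mir466q, the first sequence printed above, had 2 counts in replicate 1 and 1 in replicate 2. The other 9, namely Mir297-1, Mir466f-4, Mir466i, Mir466j, Mir466k, Mir467f, Mir467g, Mir467h and Mir669n, had none. All 10 held own windows, with a median of 70.0%, against 19.8% in the members. At the same cut-off, 0 of 10 outside copies, 6 of 119 members and 14.2% of all 2202 miRNA genes were detected. With only 10 outside copies, 0 detected does not show a share below that of all miRNA genes.

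The tissue label was checked against miRNAs of known cell types. The skeletal muscle list of 8 genes reached 100971 CPM in replicate 1 and 87956 CPM in replicate 2. Nearly the whole of this was Mir206, at a mean of 94022 ± 9301 CPM, and 6 of the 8 genes were detected. The sum therefore rests on 1 gene. Mir1a-1, Mir1a-2, Mir133a-1, Mir133a-2, Mir133b, Mir208b and Mir499 made up the small rest. Copies with shared sequence can be undercounted, so low counts of the numbered Mir1a and Mir133a copies set no firm limit on their mature RNA. The embryonic stem cell list, from a cell type known to use the Sfmbt2 cluster, had 10 genes in the tables. It summed to 3.00 CPM in replicate 1 and 1.98 CPM in replicate 2, with 0 genes detected and Mir290a, Mir291a, Mir294, Mir295, Mir302c and Mir367 at 0. The neural list of 6 genes summed to 0.500 and 1.38 CPM, with Mir124a-2, Mir124a-3 and Mir9-2 at 0. The neural genes are numbered copies too, so their low sum sets no firm limit either. Lists of other cell types were well above the stem cell and neural lists. Summed levels in replicates 1 and 2 were 55784 and 67925 CPM for the endothelial Mir126a, 24571 and 29713 CPM for 2 smooth muscle genes, and 423 and 447 CPM for 4 leukocyte genes. The erythroid pair gave 1680 and 4088 CPM and the hepatocyte Mir122 gave 103 and 272 CPM. In bulk tissue, fewer cells of a type and less RNA per cell cannot be told apart, and which cells of the muscle supplied the cluster's reads was not tested.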

How the data were processed

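Small RNA libraries of 2 gastrocnemius samples were analysed. The authors deposited raw read counts per miRNA gene, with 3 count columns per table (without regard to strand and for each strand). Per the deposited metadata text, the assembly was mm10 and the annotation GENCODE M21. No aligner or counter is named in the sources used here. Reads that match several places are counted in a row of their own and in no gene, so copies with shared sequence can be undercounted. The summary rows, 58.7% of reads in replicate 1 and 60.7% in replicate 2, stayed out of library totals. The sense-strand column was used.

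Levels are CPM. Intervals are exact (Clopper-Pearson) at 95%, for counting error only. TMM totals and the negative binomial exact test came from edgeR 4.0.16 (R 4.3.3), and DESeq2 1.42.0 gave alternative size factors. The binomial test used scipy 1.17.1 (Python 3.11.15). It was tested on simulated counts of 332 genes with counting error only, where it called 77 of 94 genes with a 2-fold change, 102 of 106 with a 4-fold change and 2 of 132 without one. Hairpin sequences for windows and identity (edlib) came from GENCODE M21 transcripts, and 0 of 119 members were matched in the RefSeq sequence table. Mature sequences of members were not used here, so own windows of the hairpin replaced the planned count of mature copies, a choice made after seeing the data. Alternatives were the unstranded column, other totals, other count minimums, no count filter, all reads as denominator and each library alone.

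The text names each detected member, the 3 leading members below detection, members outside the 4 families (the 48 Gm genes, mostly as a group), and the outside copies, with the nearest miRNA genes on the plus strand. Members given further by name were picked after their values were seen. The members and lists were chosen with earlier results of these data known.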

Additional observations from a re-analysis of the deposited data

Results flagged for a closer look

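Reads that matched several genomic places took a share of 47.0% in replicate 1, and in replicate 2 the share was 48.0% of all reads. They are listed here because they are a large part of the tables that no gene level uses. How many of them came from the Sfmbt2 hairpins was not tested, since the tables give this class as a single number per library.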

How the results depend on the processing

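Of 42 alternative values for the main results, 38 stayed within the spread between the libraries or within 1.5 times the reported count. Part of this was fixed in advance. With 2 libraries, a share in 1 library alone always lies within 1 SD of the mean. The unstranded column could not change shares within the cluster or the members detected, since member counts were equal in both columns. The 4 values that moved were as follows. The cluster share of 0.0830% was 0.101% with the unstranded column, whose assigned total is smaller, and 0.0335% of all reads. The number of outside copies detected rose from 0 to 1 with at least 1 count in both libraries. The number of members that differed between the libraries fell from 2 to 0 with the negative binomial exact test, and the log2 ratios of Mir467d and Mir669o stayed at -0.35 each. That fall was largely fixed in advance, because the spread in the test was estimated from these same libraries. With every counted gene tested, 3 members were called, Mir669e among them. With plain totals, called genes were 62 higher and 79 lower in replicate 2, against 90 and 41 with TMM, and the same 2 members, Mir467d and Mir669o, were called as lower. Members detected numbered 6 or 7 with 1 library left out (6 without replicate 1, 7 without replicate 2) and 9 with at least 1 count in both. The cluster share was 0.0751% and 0.0909% without replicates 1 and 2, and that of Mir467d in the cluster counts 43.3% and 47.9%. Windows of 18 and 22 bases left 0 detected members without own windows, which largely follows from how reads were counted. Counts of exact genome matches and of mature copies were not run. No paired analysis was possible because the series holds 1 group.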

Other observations

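The nearest miRNA genes outside Sfmbt2 on the plus strand of chromosome 2 lay far from the cluster. Upstream, Gm27306 (3075107 to 3075213) lay 7390074 bases away and had no count in either library. Downstream, Mir511 (14261003 to 14261081), a miRNA known from macrophages, lay 3742724 bases away. Mir511 had 98 counts in replicate 1 and 85 in replicate 2, or 24.5 and 16.8 CPM, and its mean of 20.6 ± 5.5 CPM lay between those of Mir669c and Mir669l of the cluster.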
